A study of Mus musculus with 2 samples.

Results

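The Notch pathway genes examined here are 4 receptor genes (*Notch1*, *Notch2*, *Notch3*, *Notch4*), 3 ligand genes (*Jag1*, *Dll1*, *Dll4*) and 3 target genes (*Hes1*, *Hey1*, *Heyl*). They were chosen by name, as all probes of the array under these gene names, which gave 13 of 39429 probes and 10 of 29924 gene names. The ureters came from E11.5 wildtype mouse embryos of the NMRI strain and were cultured as explants for 18 h without serum, either with 10 µM IWP-2 or with the solvent DMSO. IWP-2 inhibits PORCN, the acyltransferase that WNT proteins need for secretion, so the comparison asks which transcripts respond when the explants lose WNT secretion. Each of 2 two-colour arrays held 1 pool of treated and 1 pool of control ureters, with sex not determined. AlexaFluor647 labelled the treated RNA on replicate 1 and the control RNA on replicate 2, with AlexaFluor555 for the other pool, so the dyes were exchanged between the arrays. Both came from 1 slide, which was scanned once.

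Notch receptors are membrane proteins that are cleaved when a ligand of the Jagged or Delta-like family on a neighbouring cell binds them. The freed intracellular part enters the nucleus, joins the DNA-binding protein RBPJ and switches on target genes, chiefly the Hes and Hey repressors. The pathway is known for arterial endothelium, for the mural cells that wrap vessels, for neurogenesis and for the patterning of nephrons.

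In short, the values ran in both directions. *Hey1*, *Dll4*, *Notch4* and *Dll1* were higher in the treated pool on both arrays, *Jag1* and *Notch3* were lower on both, and *Hes1* and *Notch2* went opposite ways on the 2 arrays. At the level of genes, 0 of the 10 passed a false discovery rate (FDR) of 0.05 in limma, against 1.76% of all 20119 genes tested. At an unadjusted p under 0.05, 5 of the 10 were higher (8.67% of all genes) and 2 were lower (4.74% of all genes). Of the 10, 6 were higher on both arrays (28.5% of all genes) and 2 were lower on both (27.5% of all genes). In intensity, both treated pools were above both control pools for 5 of the 10 (17.4% of all genes). They were below both control pools for 2 (18.0% of all genes). Their median change was 0.24 on the log2 scale, against a median near zero over all genes and an interquartile range from -0.08 to 0.10.

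What the array measured is set by its probes, each 60 bases long and printed 4 times. The first 30 bases are given for the probes behind the highest and lowest changes and for the genes with a second probe, because the pairs of probes do not always give the same answer. Coordinates refer to mouse build mm9, which the files use, and every probe named here spans 60 bases without a break in the genome. Whether a probe lies in coding sequence or in a UTR was not determined here.

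Hey1 (chr3:8663432-8663491, minus strand): gatttgggctctaaaagtattgttttacag
Dll4 (chr2:119160779-119160838, plus strand): tttgcccagactccatcctcacagctgggc
Notch4 (chr17:34725120-34725179, plus strand): gttgatttcgagaatccctaaactctggaa
Jag1 (chr2:136907433-136907492, minus strand): ggagtattctcataagctagttgaatactt
Notch3 (chr17:32257848-32257907, minus strand): gcctaatagaaatgtttttaggctgttttt
Dll1, first probe (chr17:15504623-15504682, minus strand): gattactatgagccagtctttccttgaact
Dll1, second probe (chr17:15513726-15513785, minus strand): acactatccggaccccaattccccatttcc
Notch1, first probe (chr2:26314630-26314689, minus strand): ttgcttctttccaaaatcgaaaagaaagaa
Notch1, second probe (chr2:26319440-26319499, minus strand): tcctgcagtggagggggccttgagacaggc
Notch2, first probe (chr3:97953914-97953973, plus strand): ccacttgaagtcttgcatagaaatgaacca
Notch2, second probe (chr3:97951233-97951292, plus strand): tcttcaccacactctgcatctgactggtca

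Of the 13 probes, 12 were kept for testing. The second *Dll1* probe, which was designed on another transcript than the first, was not well above background in any pool, so its ratio (-0.05 on replicate 1 and -0.02 on replicate 2) was not tested. All 10 genes were therefore represented by a probe with signal above background in all 4 pools, and no spot was saturated. Intensities below are the scanner software's background-subtracted and dye-normalized values, in arbitrary units, and are compared between pools for the same probes, not between probes. Where they are summed over a list, the bright probes weigh most. Changes are log2 ratios of IWP-2 over control after loess normalization of the arrays, as the mean ± SD (n = 2 arrays).

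**Figure D1:**
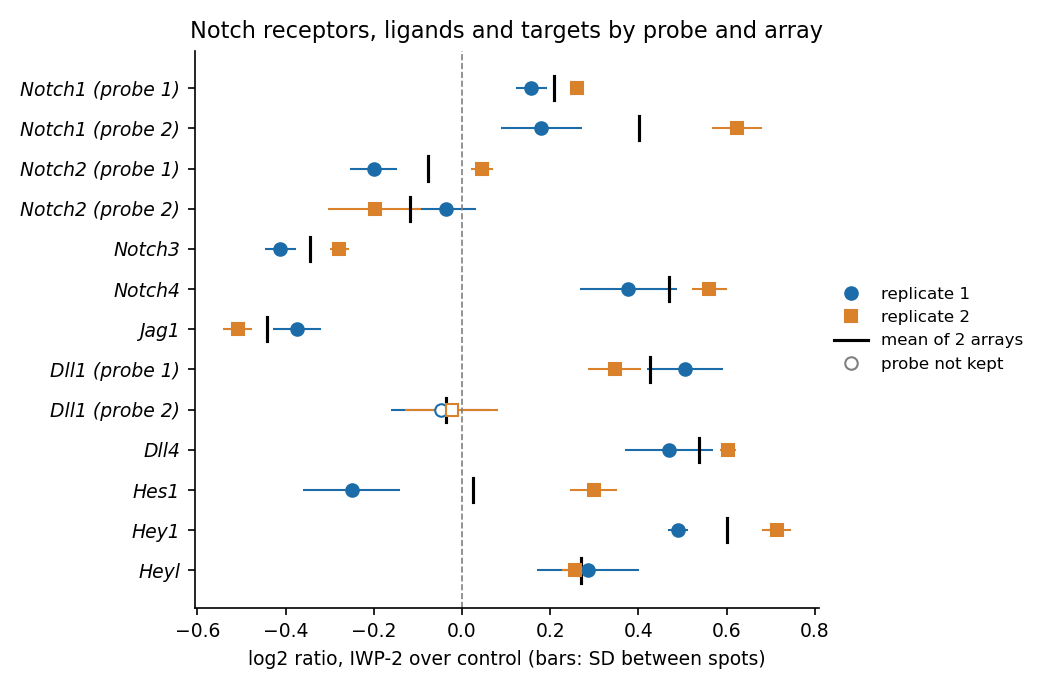
Log2 ratio of IWP-2 over control for each of the 13 probes, with replicate 1 as circles, replicate 2 as squares, bars for the SD between the spots of a probe and a black line for the mean of both arrays. *Hey1*, *Dll4*, *Notch4* and *Dll1* (probe 1) lie to the right of zero on both arrays, *Jag1* and *Notch3* to the left, and the 2 arrays lie on opposite sides for *Hes1* and for probe 1 of *Notch2*.

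Among the ligands, *Dll4*, known as the Delta-like ligand of arterial and sprouting endothelium, had an intensity of 294 in the treated and 208 in the control pool of replicate 1. On replicate 2 it had 231 in the treated and 147 in the control pool. Both treated pools were thus above both control pools, as for 17.4% of all genes tested. Its change was 0.54 ± 0.09, a 1.45-fold higher level with a 95% interval from 1.23 to 1.72, and its adjusted p was 0.0627 in limma. This change was larger than that of 98.4% of the genes tested.

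*Dll1*, a Delta-like ligand known from neurogenesis and somite formation, was measured at 418 treated and 289 control on replicate 1 and at 387 treated and 306 control on replicate 2. Here, too, the treated and control pools did not overlap. The change was 0.43 ± 0.11 with an adjusted p of 0.119 in limma.

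*Jag1*, a Jagged ligand, was the member with the lowest change. It had 915 in the treated and 1204 in the control pool of replicate 1, and 965 and 1383 in those of replicate 2. Both treated pools lay below both control pools, as for 18.0% of all genes tested. The change was -0.44 ± 0.09, which is 1.36-fold lower, with an adjusted p of 0.105 in limma, and only 2.03% of the genes tested had a lower value. The 3 ligands therefore gave values of both signs.

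**Figure D2:**
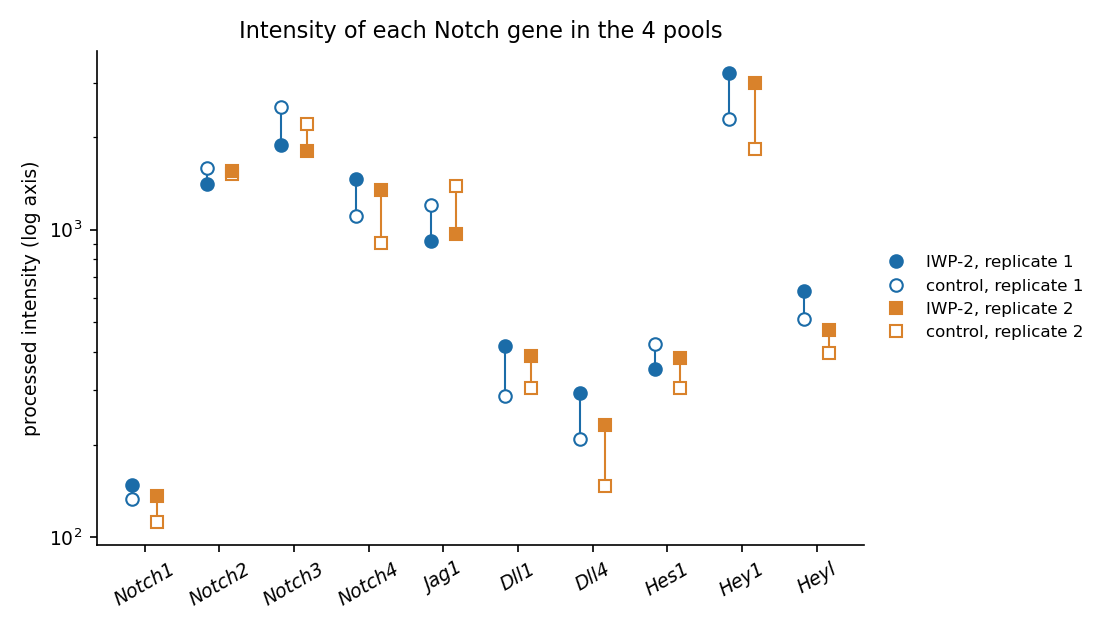
Processed intensity (arbitrary units, log axis) of the probe used for each of the 10 genes in the 4 pools, with open symbols for control, filled symbols for IWP-2 and a line joining the pools of 1 array. The filled symbols lie above the open ones on both arrays for *Notch1*, *Notch4*, *Dll1*, *Dll4*, *Hey1* and *Heyl*, and below them for *Notch3* and *Jag1*, and heights of different genes are not comparable.

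Among the receptors, *Notch4*, which is largely known from endothelium, had an intensity of 1455 in the treated and 1110 in the control pool of replicate 1. On replicate 2 the values were 1343 and 907. The treated pools were above the control pools without overlap. The change was 0.47 ± 0.13, a 1.38-fold higher level, with an adjusted p of 0.0949 in limma.

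*Notch3*, a receptor known from mural cells, moved the other way. It had 1878 in the treated and 2507 in the control pool of replicate 1, and 1805 and 2202 in those of replicate 2. The pools again did not overlap. The change was -0.35 ± 0.09, or 1.27-fold lower, with an adjusted p of 0.192 in limma.

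*Notch1*, the receptor with the widest known use, was dim. Its first probe gave 148 treated and 134 control on replicate 1 and 137 treated and 112 control on replicate 2. The mean change was 0.21 ± 0.07, and its second probe, which lies nearer to the start of the transcript, gave 0.40 ± 0.31, with 0.18 on replicate 1 and 0.62 on replicate 2. Both probes were higher on both arrays, but neither passed in limma (adjusted p 0.496 and 0.224 over 26947 kept probes).

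*Notch2* had 1406 in the treated and 1583 in the control pool of replicate 1 and 1548 and 1518 in those of replicate 2. These pools overlapped. The change of its first probe was -0.08 ± 0.17, with a 95% interval from -0.34 to 0.18. The second probe was close to the lower end of the intensity scale, between 11.2 and 15.1 in the pools of replicate 2, and gave -0.12 ± 0.11.

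Over all 7 receptor and ligand genes, 8 promoters in the RefSeq table (GRCm38.p6) could be searched. The 250 bases before the start site were read on both strands for the letters TGGGAA, the core of the RBPJ motif, and CTTTGA, a core of the TCF/LEF motif, through which WNT signaling acts on DNA. Neither was found in any of the 8, whereas 21.6% and 13.8% of all 32851 promoters held them. This says only that these letters are not in these windows. *Hes1*, *Hey1* and *Heyl* were not searched.

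Among the targets, *Hey1*, a repressor of the Hey family that acts downstream of Notch in vessels, had the highest change of the 10 genes. It had 3223 in the treated and 2293 in the control pool of replicate 1, and 3006 and 1826 in those of replicate 2. Both treated pools were well above both control pools. The change was 0.60 ± 0.16, with 0.49 on replicate 1 and 0.71 on replicate 2, which is a 1.52-fold higher level with a 95% interval from 1.27 to 1.81. Its adjusted p was 0.0537 in limma over all genes and 0.0417 in the fit over all kept probes. At the level of probes it was the only one of the 12 tested to pass FDR 0.05, against 2.05% of all kept probes (0.824% higher), so its call turns on the unit of the test. *Hey1* also passed with a trend of the variance on brightness in the prior (adjusted p 0.0186 in limma), and did not with processed intensities (0.094).

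*Heyl*, a related repressor known from mural cells, had 630 in the treated and 511 in the control pool of replicate 1, and 473 and 396 in those of replicate 2. The treated pool was higher within each array, but the pools overlapped across arrays. The change was 0.27 ± 0.02 and the adjusted p 0.294 in limma.

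*Hes1*, a repressor that answers to Notch and to other signals, gave no common direction. It had 352 treated and 424 control on replicate 1, and 383 treated and 306 control on replicate 2. The changes were -0.25 and 0.30, with a mean of 0.02 ± 0.39, the widest spread of the 10 genes. Since the dyes were swapped, the channel with AlexaFluor555 was the brighter one after normalization on both arrays. The 95% interval of the mean runs from -0.32 to 0.37, so that a change of up to that size in either direction was not excluded.

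**Figure D3:**
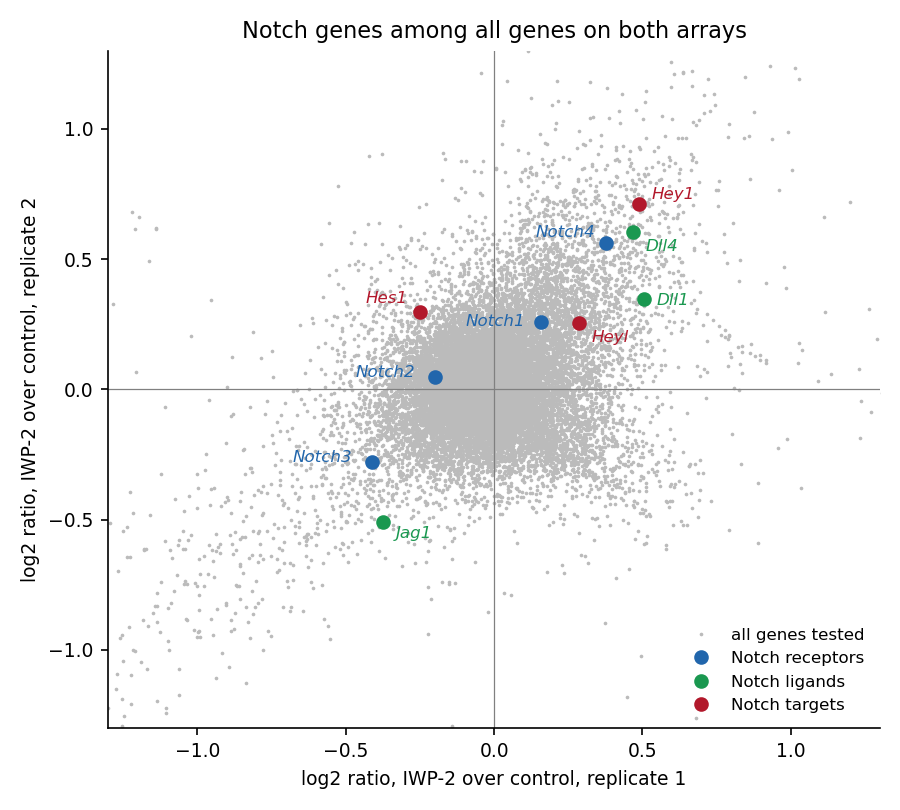
Log2 ratio of IWP-2 over control on replicate 1 (horizontal axis) and replicate 2 (vertical axis) for all 20119 genes tested, with receptors, ligands and targets of the Notch pathway in colour. *Hey1*, *Dll4*, *Notch4* and *Dll1* lie at the upper right and *Jag1* and *Notch3* at the lower left, while 109 genes lie beyond the axis limits of 1.3 in either direction.

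A filter on fold and intensity, modelled on the cut-offs the study used, was applied as well. Here it asked for a 2-fold difference of like sign on both arrays and a signal of 100 or more in the stronger channel, the choice of channel being made for the present comparison. Of the 10 genes 0 met this, although all 10 were bright enough. Of all bright genes, 0.419% were retained. With a fold change of 1.5 it was again 0 of the 10, against 1.63% of bright genes.

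The rest of the pathway was read from a list of 54 genes grouped by role, of which 53 could be tested. *Nrarp* was the only one higher and *Dtx3l* the only one lower at FDR 0.05 (0.611% and 1.15% of all genes). The median over the list was -0.01. On both arrays, 17 genes were higher (28.5% of all genes) and 18 were lower (27.5% of all genes), and 18 went opposite ways. *Nrarp* encodes a feedback inhibitor that is itself a direct Notch target. It had 610 in the treated and 413 in the control pool of replicate 1 and 565 and 373 in those of replicate 2. It rose by 0.57 ± 0.02, with an adjusted p of 0.0466 in limma. This call was lost in 5 of 10 alternatives (adjusted p up to 0.742 in limma, with centring on the median). With that centring, only 7 genes were higher and 36 lower at FDR 0.05 over all genes tested.

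Of the 5 other targets, *Nrarp* and *Hes5* were higher on both arrays and *Hes7*, *Hey2* and *Efnb2* lower on both. A second probe of *Efnb2* went opposite ways, with 0.11 on replicate 1 and -0.52 on replicate 2. *Hes5*, a repressor of neural progenitors, changed by 0.36 ± 0.30 from low intensities of 28.2 to 63.6. *Hey2*, the closest relative of *Hey1* on the list, had the lowest value, -0.31 ± 0.29, with -0.51 on replicate 1 and -0.10 on replicate 2. Hence *Hey1* and *Hey2* had values of opposite sign, and neither passed at the level of genes. *Hes6*, whose product opposes HES1, changed by 0.01.

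The 5 other ligands had a median of 0.31, and 3 of them, *Dner* (0.57 ± 0.23), *Jag2* (0.35 ± 0.01) and *Dll3* (0.31 ± 0.11), were higher on both arrays. None of these passed FDR 0.05 in limma (adjusted p 0.0774, 0.168 and 0.243). *Dlk2* had the lowest value (-0.08 ± 0.10), and *Dlk1* differed between arrays, with -0.02 and 0.58. *Jag2* was thus higher on both arrays and *Jag1* lower on both.

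Among the glycosyltransferases that tune the receptors' choice of ligand, *Mfng* stood at 0.59 ± 0.13, with an adjusted p of 0.0537 in limma, while the other 4 lay between -0.06 and 0.02. The second probe of *Mfng* gave 0.35 on replicate 1 and 0.51 on replicate 2. *Lfng* changed by 0.01 ± 0.13.

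The general machinery gave small values. Genes for the cleavage of the receptor ranged from -0.22 for *Ncstn*, a subunit of γ-secretase, to 0.23 for *Psen2*, a catalytic subunit of the same complex. Genes for ligand endocytosis ranged from -0.03 (*Mib2*) to 0.09 (*Neurl1a*). In the nuclear complex *Rbpj* had the lowest value (-0.19 ± 0.25) and *Kat2b*, an acetyltransferase, the highest (0.29 ± 0.03). The probe used for *Rbpj* gave -0.37 on replicate 1 and -0.01 on replicate 2, and its second probe 0.19 and -0.45. Corepressors ranged from -0.25 (*Tle3*) to 0.06 (*Hdac1*). In these 4 groups 0 of 27 tested genes passed FDR 0.05 in limma (1.76% of all genes). At an unadjusted p under 0.05 in limma, 1 was higher and 1 lower (8.67% and 4.74% of all genes).

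Inhibitors and genes of receptor turnover spread most. *Dtx3l*, an E3 ligase of the Deltex family, had 253 treated and 645 control on replicate 1 and 419 treated and 696 control on replicate 2, and fell by 1.01 ± 0.43, with an adjusted p of 0.0361 in limma. The other 2 kept probes of *Dtx3l* gave -0.73 and -0.58. This call was lost in 5 of 10 alternatives (adjusted p up to 0.420 in limma, with the series table). DTX3L is known mostly from the DNA damage and interferon responses rather than from Notch signaling. *Dtx1*, the Deltex gene most often named as a Notch target, changed by -0.42 ± 0.19 without passing. *Egfl7*, a secreted protein of endothelium that can bind Notch ligands, had the highest value of this group (0.47 ± 0.10, adjusted p 0.0865 in limma).

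**Figure D4:**
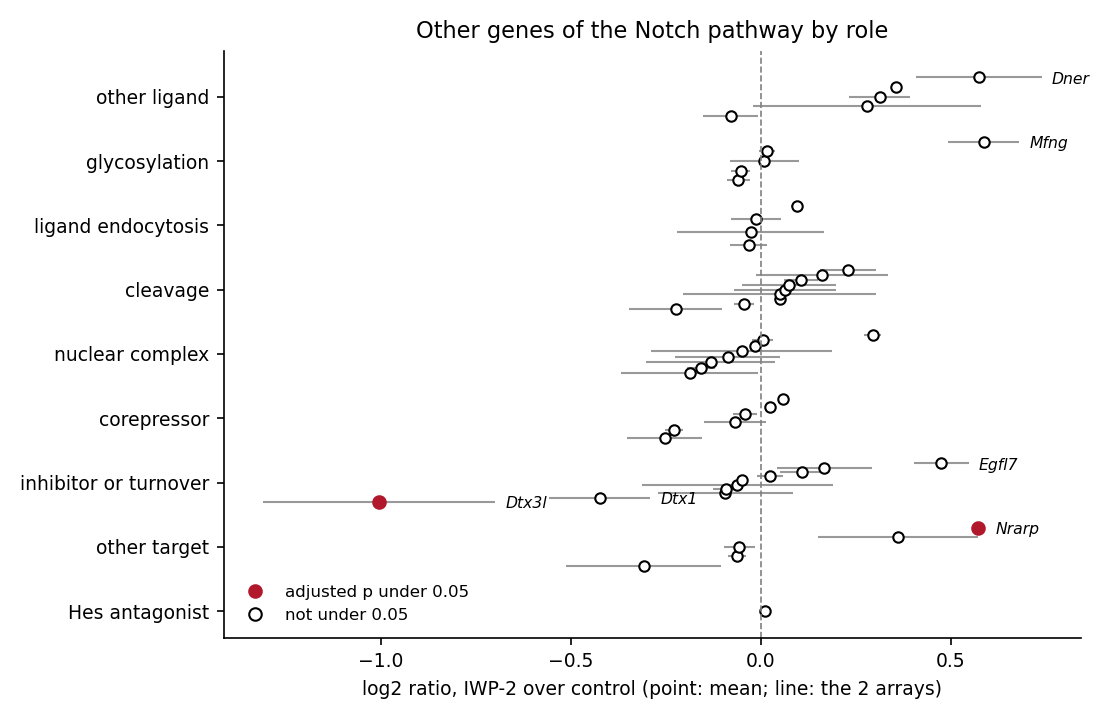
Mean log2 ratio of IWP-2 over control (points) and the values of the 2 arrays (ends of the lines) for the 53 tested genes of the pathway list, by role. Filled points mark *Nrarp* (0.57) and *Dtx3l* (-1.01), the genes with an adjusted p under 0.05, and names are given for means beyond 0.4 in either direction.

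Several of the genes above are used by cells other than the ureteric mesenchyme, so markers of the cell types that such explants could hold were read beside them. Over all genes tested, 28.5% were higher and 27.5% lower on both arrays. At an unadjusted p under 0.05 in limma, 8.67% of all genes were higher and 4.74% lower. All 12 endothelial markers were higher on both arrays, with a median of 0.47, from 0.24 (*Tie1*) to 0.90 (*Sox17*). Of these, *Sox17*, *Cldn5* and *Kdr* passed FDR 0.05 in limma (adjusted p 0.0231, 0.0347 and 0.0359). A second probe of *Kdr* gave only 0.20. The intensities of the list summed to 24112 for the treated and 17721 for the control pool of replicate 1, and to 20349 and 12920 on replicate 2, and no marker was below background in both groups. *Dll4* (0.54), *Notch4* (0.47) and *Hey1* (0.60) had changes within the range of this list, as did *Mfng* (0.59), *Nrarp* (0.57) and *Egfl7* (0.47). The range also held *Dll1*, *Heyl*, *Jag2*, *Dll3*, *Dlk1*, *Dner*, *Kat2b* and *Hes5*, so it is not particular to genes known from endothelium. Macrophage markers ran over a similar range, from 0.24 to 0.92. The part of endothelial RNA in the values of the Notch pathway genes was not tested. In a bulk sample, more cells of a type and more RNA per cell cannot be told apart.

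Neural markers had a median of 0.36, with 9 of 10 higher on both arrays, and 0 passed FDR 0.05 in limma, against 7 higher at an unadjusted p under 0.05. Their summed intensity was 69553 treated and 52062 control on replicate 1, and 60295 treated and 48860 control on replicate 2. *Dll1* (0.43), *Dll3* (0.31) and *Dner* (0.57), ligands known from neurons and their progenitors, stand beside this list, and the part of neural RNA in their values was not tested.

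Mural markers did not share a direction, and the bright *Mcam* made up most of their sum. *Pdgfrb* was highest (0.50 ± 0.17) and *Rgs5* lowest (-0.37 ± 0.14), and of the 8 markers 3 were higher and 3 lower on both arrays. Their summed intensity was 23419 treated and 21585 control on replicate 1, but 17883 treated and 18722 control on replicate 2. *Notch3* (-0.35) and *Heyl* (0.27), both known from mural cells, likewise had opposite signs.

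Markers of the ureteric mesenchyme had a median of -0.46, and 6 of 8 were lower on both arrays. *Foxf1* (-1.57), *Tbx18* (-1.03), *Tcf21* (-0.77) and *Bmp4* (-0.73) passed FDR 0.05 in limma, and *Aldh1a2* was highest (0.05). The summed intensity of this list was 86794 treated and 108779 control on replicate 1, and 79112 treated and 92371 control on replicate 2. All 8 genes of this list were bright enough to be tested. The study proposes *Foxf1* and *Bmp4* as likely direct targets of WNT signaling. It also states that *Tbx18* expression is lost in mesenchyme without *Ctnnb1*. For these genes a response to IWP-2 and less mesenchymal RNA cannot be told apart here. *Jag1* and *Notch3* were also lower on both arrays, and the part of mesenchymal RNA in their values was not tested. Epithelial markers had a median of 0.18, from -0.45 (*Wnt9b*) to 0.35 (*Ret*), with 0 past FDR 0.05 in limma and 3 higher and 1 lower at an unadjusted p under 0.05.

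All 8 macrophage markers were higher on both arrays (median 0.42), from 0.24 (*Fcgr1*, with intensities of 5.09 to 9.48 at the dim end of the scale, and a change of 0.77 with processed intensities and of 0 in the series table) to 0.92 for *Adgre1*, which passed (adjusted p 0.0409 in limma). Nephron progenitor markers gave a median of 0.26 on replicate 1 and -0.03 on replicate 2, from -0.56 (*Osr1*) to 0.96 for *Meox1*, which passed (adjusted p 0.0286 in limma). Their summed intensity was 17017 treated and 14304 control on replicate 1, and 14909 treated and 17103 control on replicate 2, so that the sums differed in opposite directions on the 2 arrays. Gene by gene, 4 of the 8 were higher on both arrays, 1 was lower on both and 3 went opposite ways.

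**Figure D5:**
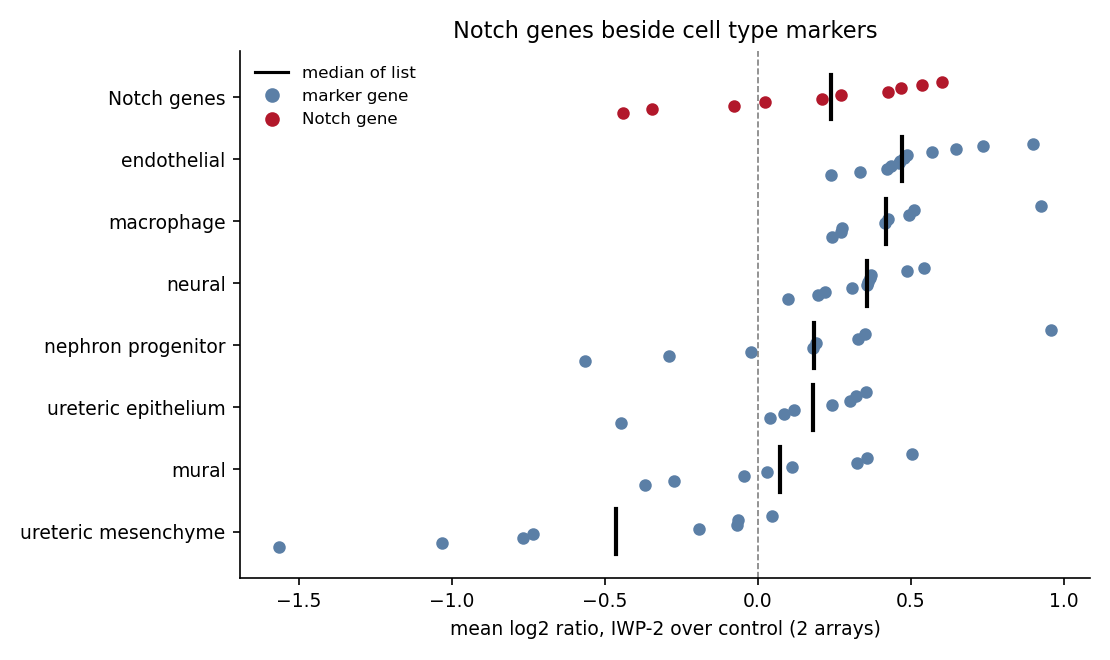
Mean log2 ratio of IWP-2 over control for the 10 Notch genes and for the markers of 7 cell types, each point 1 gene and each black line the median of a list. The Notch genes spread on both sides of zero with a median of 0.24, while endothelial (0.47), macrophage (0.42) and neural (0.36) markers lie to the right and ureteric mesenchyme markers (-0.46) mostly to the left.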

How the data were processed

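RNA of pooled ureters was compared on 2 two-colour Agilent arrays (design 084956). The deposited files give, per the file headers, spot and local background intensity in both channels from Feature Extraction 12.2.0.7 (10.7.3.1 in the submitters' processing notes), and an intensity that the software had background-subtracted and dye-normalized. The deposited series table holds a signed fold change per probe rounded to 1 decimal.

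Mean spot intensities were corrected by normexp (offset 50) and normalized by loess within arrays in R 4.3.3 with limma 3.58.1. Spots marked as outliers were dropped and the rest of a probe averaged. Probes were kept when, in 1 of the arms, the share of spots flagged as well above background exceeded 0.5 on each array. The brightest kept probe stood for its gene. Log2 ratios were fitted with lmFit and eBayes, ratios being turned to IWP-2 over control before the fit, and p-values adjusted by Benjamini-Hochberg over all 20119 genes or all 26947 kept probes. With 2 arrays, 1 residual degree of freedom remained per gene. At the level of genes, eBayes added a prior drawn from all genes (5.52 degrees of freedom, SD 0.15). The p-values therefore rest on the spread between these arrays drawn largely towards that of all genes, and the number of arrays limits the precision. The share of spots well above background ran from 68.6% to 70.7% over the channels.

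The 10 genes, the pathway list and the marker lists were chosen with earlier results of these data known. The genes named were the 10, and of each role or list those past FDR 0.05 and the lowest and highest (for the neural list these are not reported here); other genes are named for their role, and *Mcam* was chosen after its values were seen. The procedure was run on simulated spots with known changes, most of them larger than those of the 10 genes, and with a spread drawn from the fitted prior. Its outcome is not reported here, and it does not show whether changes as small as theirs are found. The alternatives were background correction, normalization, filters, the rule for several probes, the prior, the series table and single arrays. *Aph1c* had no probe under that name.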

Additional observations from a re-analysis of the deposited data

How the results depend on the processing

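The direction of the mean change was the same under all 10 alternatives for each of the 10 Notch genes except *Hes1*, which turned negative (-0.0032) with centring on the median. With that centring the median of all genes moved to 0.11 on replicate 1 and -0.14 on replicate 2, against -0.01 and 0.02 with loess. The Pearson correlation between the 2 arrays over all genes was 0.465 with loess and only 0.0067 with that centring. *Hes6* (-0.024) also turned with it, and *Hdac1* (-0.039) with the mean over probes. The alternatives for the prior change only the variance, so they could not turn a mean. Without the filter on dim probes the means of the 10 Notch genes also stayed the same. The 10 alternatives leave out single arrays, where *Notch2* was 0.05 without replicate 1 and *Hes1* was -0.25 without replicate 2.

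The number of Notch genes past FDR 0.05 in limma, 0 at the level of genes, was 2 with the mean over probes (*Hey1*, *Dll4*), 2 with a trend on brightness in the prior (*Hey1*, *Notch4*), 2 with a trend and a robust prior, and 1 with the series table (*Heyl*). At an unadjusted p under 0.05, 7 of the 10 passed, against 4 with centring on the median, 5 with the series table and 7 or 8 under the others. At the level of probes, 1 was called, against 0 with processed intensities, with centring on the median and without the filter on dim probes, 3 with the trend and 4 with the trend and robust prior. For the pathway list, 2 genes were called, against 0 without background correction, with processed intensities, with centring and without the filter, 1 with outlier spots kept, 4 with the trend and 8 with the series table. For the marker lists together, 9 were called, against 5 without background correction, 2 with processed intensities, 1 with centring, 2 without the filter and 14 with the trend. Single marker calls were lost in 1 (*Foxf1*) to 6 (*Adgre1*, *Kdr*) of the 10 alternatives. More genes tested and the rounding of the series table are part of how those alternatives are made, and otherwise the cause was not tested. The trend and robust prior together were chosen after seeing the data.

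With 1 array no residual degree of freedom is left, so no count past FDR 0.05 has a value without a replicate, and the fold filter retained 0 of the 10 genes on either array alone. Without a replicate, *Hey1* ran from 0.49 to 0.71, *Dll4* from 0.47 to 0.60, *Notch4* from 0.38 to 0.56 and *Jag1* from -0.51 to -0.37. The ratios are taken within arrays, so each treated pool is already paired with the control pool on its array, and no further block could be added. Signal over background left the second probe of *Dll1* without a test.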
